A study of Rattus norvegicus with 24 samples.

Results

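Myelin basic protein (Mbp), peripheral myelin protein 22 (Pmp22), periaxin (Prx), the transcription factor Sox10 and the calcium-binding protein S100b were followed as markers of Schwann cells and their myelin in rat soleus. Their probes were taken by gene symbol from the annotation of the authors' normalised table, which gave 5 of its 19956 gene symbols and 7 of the 30367 probes on the array. The study asked how earlier training changes the response of a muscle to exercise, and measured RNA from the mid-belly of the soleus, a slow postural muscle of the hind limb, on 24 one-colour Agilent arrays, 1 per female rat of about 14 weeks. The sedentary group (SED, 8 rats) spent 8 weeks without running, the detrained group (DETR, 8 rats) ran voluntarily for 4 weeks and was then sedentary for 4 weeks, and the trained group (TR, 8 rats) ran voluntarily for 8 weeks. Every rat of all 3 groups, SED included, also ran in a forced wheel for 1 h at 20 m/min, and its muscle was taken 24 h later. The groups differ in the weeks before the bout, and none of them was left without it.

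Schwann cells are the glia of peripheral nerve and reach the muscle with the intramuscular nerve branches. Myelinating Schwann cells wrap an axon in compact membrane held together by Mbp on the cytoplasmic side, with Pmp22 within the membrane, while Prx links the Schwann cell membrane to its basal lamina. Sox10 specifies the lineage and acts with Egr2 on myelin genes, and S100b is a cytoplasmic protein long used to stain Schwann cells, though other cells make it too. In a piece of whole muscle these transcripts are a small part of the RNA, and fewer Schwann cells and less of the RNA per cell cannot be told apart.

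Promoter sequences from RefSeq (GRCr8) are shown for the myelin genes Prx and Pmp22, each of which was correlated with Mbp across arrays. Each window runs from 250 bases before to 50 bases after a transcription start, 5′ to 3′ on the gene's strand, and 4 of the 5 members have an entry. The Prx window is chr1:91914171-91914470, plus strand, at a start that lies 1752 bases inside the outermost annotated start of the gene. The Pmp22 window is chr10:48294682-48294981, plus strand, at the outermost annotated start. Capitals mark matches on either strand to GNGGGNG, the core letters searched for EGR factors.
Prx: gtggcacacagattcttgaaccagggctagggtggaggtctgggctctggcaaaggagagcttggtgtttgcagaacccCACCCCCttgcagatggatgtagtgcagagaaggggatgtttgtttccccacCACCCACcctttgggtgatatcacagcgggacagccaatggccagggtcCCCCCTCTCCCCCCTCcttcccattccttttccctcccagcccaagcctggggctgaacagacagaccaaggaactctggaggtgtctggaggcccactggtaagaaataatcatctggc
Pmp22: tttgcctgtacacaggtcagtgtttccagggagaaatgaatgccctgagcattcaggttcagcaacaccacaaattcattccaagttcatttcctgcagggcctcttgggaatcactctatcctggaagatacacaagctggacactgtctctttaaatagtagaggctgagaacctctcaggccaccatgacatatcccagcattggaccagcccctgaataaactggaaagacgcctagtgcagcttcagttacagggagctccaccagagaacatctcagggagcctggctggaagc
The Prx window held 5 such matches, all on the reverse strand, of which the last 3 overlap, and the Pmp22 and S100b windows held 0. The letters searched for SOX factors, ACAANG, had 0 matches in any of these 3 windows. Of 33469 promoters of the same length, 61.4% held the EGR letters and 42.1% the SOX letters, so a match or its absence separates few genes, and it is a description of letters and not of a bound site.

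The levels below are log2 signals relative to the 75th percentile of all signals on the same array, so that 0 is the 75th percentile, and a probe's level says nothing of its level against another probe. The Mbp probe A_64_P017163, the Pmp22 probe and the Sox10 probe were well above background on 24 of 24 arrays, the S100b probe A_64_P109327 on 20 and the Prx probe on 15. These 5 probes passed the filter, which asked for 8 arrays. The remaining 2 did not pass. The Mbp probe A_64_P017160, annotated to a transcript variant, was well above background on 6 arrays, 5 of them DETR. Those 5 all lay on the first of the slides described below, which held no TR array and only 2 SED arrays. The probe was not well above background on SED 1 or SED 2. With so few SED arrays there, the parts of group and slide were not tested. The S100b probe A_43_P15530, printed at 10 spots per array, was well above background on 0 arrays, and its spots had a median coefficient of variation of 92.0%, so neither probe gives a level here.

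The arrays lay on 3 slides of 8, and the slides do not hold the groups equally. The first held 2 SED and 6 DETR arrays, the second 4 SED and 4 TR arrays, and the third 2 SED, 2 DETR and 4 TR arrays. Slide 3 was scanned on another day and was dimmer, with 75th percentiles between 95.5 and 339 intensity units against 562 to 1493 on the other slides. The members shifted with it: compared with the mean of slides 1 and 2, slide 3 was lower by 1.33 ± 0.42 (SE) for Mbp, 0.98 ± 0.27 for Prx, 0.97 ± 0.12 for Pmp22 and 0.59 ± 0.20 for S100b, and higher by 1.43 ± 0.12 for Sox10. The median over all probes was 0.14. The directions of the members held in the 3 other scalings tried, but the sizes did not: Prx was -1.78 with quantile normalization, -1.79 in the deposited table and -0.49 with normexp, S100b was -1.06, -1.11 and -0.35, and the median over all probes was -0.11, -0.24 and -0.06. Prx was well above background on none of the slide 3 arrays, so its values there are bounded by background. For that reason every difference was fitted with a term for slide, and every correlation was taken on values with the mean of each slide taken off.

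Of the label's cell type, 13 of 13 listed myelin genes, 3 of 4 myelin lipid enzymes, 10 of 11 Schwann cell regulators and 9 of 10 genes of immature or non-myelinating Schwann cells passed the filter. The exceptions were Ugt8, Nrg1 and Cdh19, the last well above background on 0 arrays. Over the whole array 23425 of 30367 probes passed, so passing the filter does not by itself mark a cell type. Sox10 and S100b are not confined to Schwann cells. Of 6 melanocyte genes, which share Sox10, only Mitf, a gene with wide expression, passed. All 5 oligodendrocyte genes, which share Mbp and Sox10, passed on this array, and their part in the levels was not tested.

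Mbp, the major basic protein of compact myelin, varied more between rats than any other member. In SED it ran from -0.69 to 1.89 with a median of 0.53, in DETR from -0.78 to 1.92 with a median of 0.69, and in TR from -2.22 to 2.25 with a median of 0.87. The lowest and the highest of all 24 arrays were both trained rats, TR 5 and TR 2, which lay 22.1-fold apart, and the 3 groups overlapped over most of their range. That distance includes the shift between slides 3 and 2: with slide means taken off, TR 5 was at -2.06 and TR 2 at 1.40. The spread of Mbp within slides was larger than that of 98.2% of the probes that passed. The SED mean was 0.56 ± 1.04 (SD, n = 8), that of DETR 0.77 ± 0.90 and that of TR 0.60 ± 1.44.

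Pmp22, a membrane protein of compact myelin that fibroblasts and other cells also make, varied less. It ran from 0.73 to 2.20 in SED with a median of 2.01, from 1.02 to 2.35 in DETR with a median of 1.78, and from 0.66 to 2.38 in TR with a median of 1.86. The lowest arrays of each group were on slide 3, and the groups overlapped. Its spread within slides was larger than that of 33.6% of the probes that passed, and of 61.1% of the 1000 probes nearest to it in level.

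Prx, the periaxin gene, sat near the detection limit. It ran from -5.43 to -3.40 in SED with a median of -4.22, from -5.11 to -3.25 in DETR with a median of -4.10, and from -5.53 to -3.07 in TR with a median of -3.97. Its highest array, TR 7, was on slide 3, where no Prx signal was well above background, and the groups overlapped.

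Sox10, the lineage factor, ran from -2.38 to -0.32 in SED with a median of -1.96, from -2.07 to -0.34 in DETR with a median of -1.74, and from -2.60 to -0.02 in TR with a median of -1.28. The high values of each group were all on slide 3, and TR, with 4 of its 8 arrays there, had the highest median. S100b ran from -4.12 to -2.32 in SED with a median of -2.82, from -3.66 to -2.36 in DETR with a median of -3.23, and from -3.98 to -2.48 in TR with a median of -3.05. The groups overlapped for both genes.

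**Figure D1:**
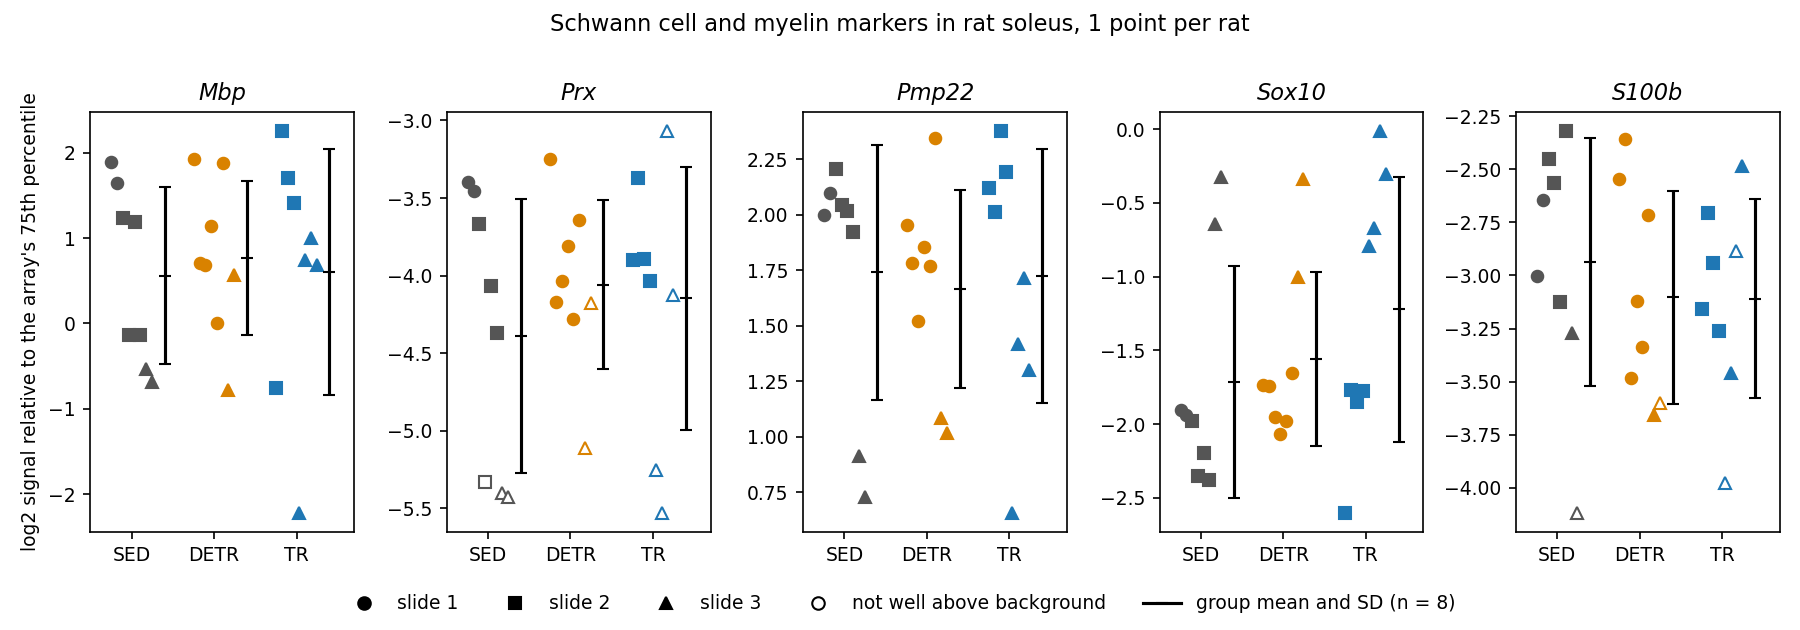
Level of each member on 24 arrays, as log2 signal relative to the array's 75th percentile, by group; marker shape gives the slide, open markers were not well above background, and the bars are group means with SD (n = 8). Mbp spans -2.22 to 2.25, the groups overlap for every gene, and the slide 3 arrays lie high for Sox10.

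No member passed the test in any comparison. In TR minus SED, the comparison of 8 weeks of running with none, the fitted log2 differences were 0.56 ± 0.31 (SE) for Prx, 0.47 ± 0.49 for Mbp, 0.22 ± 0.13 for Pmp22, 0.18 ± 0.14 for Sox10 and -0.02 ± 0.23 for S100b. The smallest adjusted p, from limma with Benjamini-Hochberg adjustment over 23425 probes, was 0.542, for Prx. Called members numbered 0 of 5, where 2 of 23425 probes (0.00854%) were called. At an unadjusted p under 0.05 the members numbered 0 as well, against 10.3% of probes.

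The interval of the Mbp difference, -0.54 to 1.48, covers a fall to 0.69-fold and a rise to 2.79-fold, so a change of that size was not detectable. Pmp22 was bounded more tightly, between 0.96-fold and 1.41-fold, and Sox10 between 0.92-fold and 1.39-fold. Within slides, which share the scan, the Mbp difference was 0.61 on slide 2 and 0.67 on slide 3. S100b was -0.40 on slide 2 and 0.49 on slide 3.

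In DETR minus SED, the comparison of 4 weeks of running followed by 4 sedentary weeks with none, the differences were 0.05 ± 0.36 for Prx, -0.02 ± 0.17 for Sox10, -0.05 ± 0.16 for Pmp22, -0.17 ± 0.56 for Mbp and -0.19 ± 0.26 for S100b. Called members numbered 0 of 5 with limma, and called probes 0 of 23425 (0%), with 4.06% of probes at an unadjusted p under 0.05. This contrast rests on slides 1 and 3, and Mbp was -0.71 on the first and 0.51 on the third, so not even its direction was settled.

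In TR minus DETR, the comparison of continued with stopped running, the differences were 0.64 ± 0.63 for Mbp, 0.51 ± 0.40 for Prx, 0.27 ± 0.17 for Pmp22, 0.19 ± 0.18 for Sox10 and 0.17 ± 0.29 for S100b. Called members again numbered 0 of 5 with limma, against 0 of 23425 probes (0%), with 10% of probes at an unadjusted p under 0.05. Slide 3 alone holds both groups, and there the Mbp difference was 0.16. The comparisons share arrays, so their values are set side by side and not counted as separate support.

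**Figure D2:**
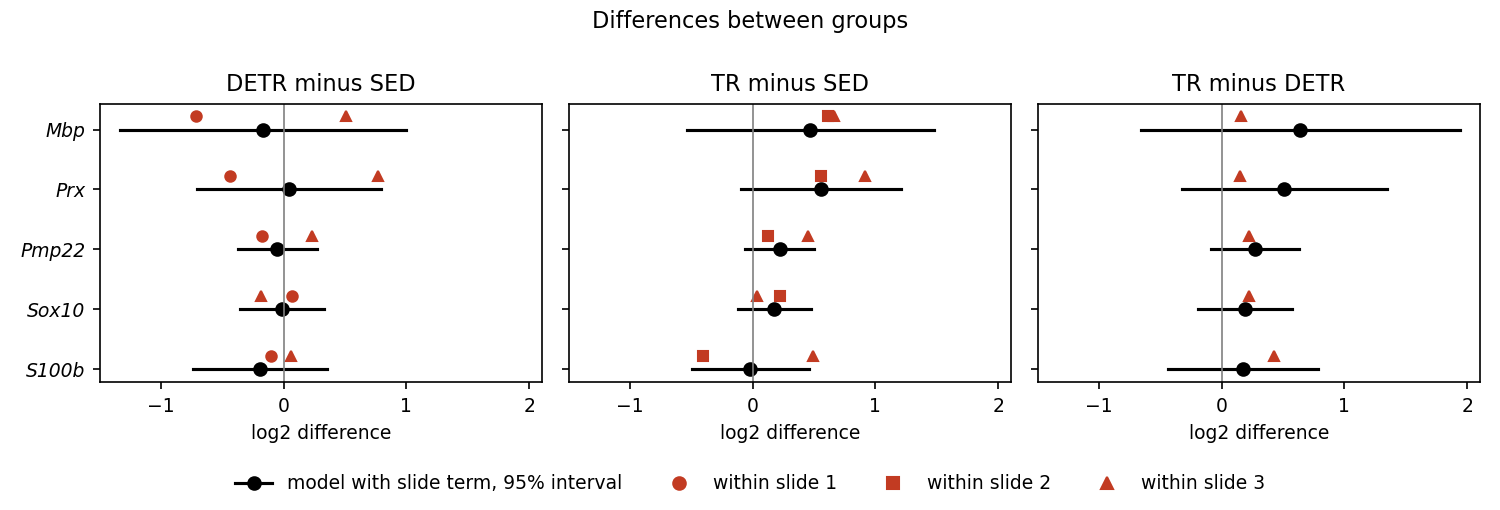
Fitted log2 differences of the 5 members in each comparison, with 95% intervals (black), and the differences within each slide that holds both groups (red). Every interval includes 0, and the Mbp intervals are the widest, as in TR minus SED from -0.54 to 1.48.

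The other genes of nerve gave the same count. Of 53 listed genes of myelin, Schwann cells, axons and perineurium, 47 passed the filter, and 0 were called in any comparison. At an unadjusted p under 0.05 they numbered 0 in DETR minus SED, 8 in TR minus SED and 7 in TR minus DETR, where the share over all probes was 4.06%, 10.3% and 10%. Their median difference was 0.02, 0.08 and 0.10, beside 0.03, 0.01 and -0.03 over all probes.

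The smallest p of these lists in TR minus SED was that of Stmn2, a microtubule regulator of growing axons, at -0.69 ± 0.19 with an adjusted p of 0.272 in limma. Tubb3, the neuronal tubulin, was -0.50 ± 0.19 and Uchl1, a neuronal ubiquitin hydrolase, -0.79 ± 0.33, with adjusted p of 0.400 and 0.435. Of the 9 genes of the axon and motor neuron list that passed the filter, 3 were higher and 6 lower in TR minus SED. The median of that list was -0.16, and Prph, Chat and Slc18a3 were 0.15, 0.06 and 0.05. Cldn1, a tight junction protein of perineurium and epithelia, was 1.00 ± 0.30 in TR minus SED and 1.25 ± 0.38 in TR minus DETR, with adjusted p of 0.288 and 0.352. Its highest arrays were TR 7 and TR 8, both on slide 3, at 0.36 and 0.02, and its TR median was -2.09. The other perineurium genes, Itgb4 and Slc2a1, were -0.14 ± 0.28 and 0.16 ± 0.09 in TR minus SED. In TR minus DETR they were 0.10 ± 0.36 and 0.004 ± 0.12. The myelin proteolipid Pllp was 0.68 ± 0.28 in TR minus SED, adjusted p 0.429. Ngfr, the low-affinity neurotrophin receptor of immature Schwann cells, was 0.55 ± 0.26, and Dhh, a Schwann cell signal to the perineurium, was -0.58 ± 0.27, with adjusted p of 0.478 and 0.477. Pou3f1 and Adgrg6, regulators listed with Dhh, were 0.81 ± 0.41 and 0.44 ± 0.25. In TR minus SED the regulators had 5 genes higher and 5 lower, with a median of -0.01. The list of immature and non-myelinating Schwann cells had 8 higher and 1 lower, with a median of 0.17.

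Across rats, Mbp moved with Sox10, Pmp22 and Prx. Over the 24 arrays, with slide means taken off, Mbp had a Pearson r of 0.735 with Sox10 (Spearman rho 0.755), 0.665 with Pmp22 (rho 0.658) and 0.639 with Prx (rho 0.648). The permutation p, two-sided and within slides, was 0.00042, 0.00057 and 0.00209, and 0.00285, 0.00285 and 0.00697 after Benjamini-Hochberg adjustment over the 10 member pairs. For rho the adjusted permutation p was 0.0039, 0.00615 and 0.0073. Prx was also correlated with Sox10, r = 0.598 (rho 0.618, permutation p 0.00708, adjusted 0.0177, for rho 0.0104), and with Pmp22, r = 0.563 (rho 0.505, permutation p 0.013, adjusted 0.0261, for rho 0.0506). Of the 10 pairs, 5 passed on r.

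S100b passed with no other member: r was 0.508 with Pmp22 (rho 0.469, permutation p 0.0303, adjusted 0.0504, for rho 0.0623), 0.390 with Mbp (rho 0.414, adjusted permutation p 0.103, for rho 0.0773), 0.373 with Prx (rho 0.387, adjusted 0.138, for rho 0.0959) and 0.293 with Sox10 (rho 0.253, adjusted 0.204, for rho 0.261). Within slide 2 all 4 of these r were below 0, from -0.364 to -0.123. The pair Pmp22 and Sox10, with r of 0.424 (rho 0.406, adjusted permutation p 0.0759, for rho 0.0773), did not pass either.

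Arrays high or low for one gene were often so for others. TR 5 was the lowest for Mbp and Pmp22 once slide means were taken off, at -2.06 and -0.45, and TR 7 the highest for Pmp22, Prx and Sox10, at 0.61, 1.69 and 0.50. TR 7 was also the dimmest array, with a 75th percentile of 95.5, and its Prx signal was not well above background. TR 2, at 1.40, was the highest for Mbp. TR 2 had 1206 outlier spots, against 383 to 622 on the other arrays. With single arrays left out, the Mbp difference in TR minus SED ran from 0.27 without TR 2 to 0.80 without TR 5. TR 1 was low for Mbp at -1.60 and Sox10 at -0.49 but not for Prx at 0.18.

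The Mbp pairs did not rest on the extreme arrays. Without TR 1 and TR 5, the arrays farthest from the median of Mbp, r was 0.669 with Sox10, 0.661 with Pmp22 and 0.745 with Prx. Pmp22 with Prx, in contrast, fell to 0.384 without DETR 6 and TR 7, and to 0.351 without TR 7 alone, and Prx with Sox10 to 0.458 without SED 4 and TR 7. Within the 3 slides, r of Mbp was 0.432, 0.949 and 0.635 with Sox10, 0.734, 0.354 and 0.836 with Pmp22, and 0.943, 0.596 and 0.602 with Prx. The count of pairs that passed fell to 3 without TR 7, and was 2 without slide 3, an alternative added after the data were seen.

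The correlations with Sox10 depend on the slide correction. On values without it, Mbp with Sox10 was -0.256 and Pmp22 with Sox10 was -0.747, since slide 3 was higher for Sox10 and lower for the others. Array brightness, as the log2 75th percentile, had r of -0.609 with Prx (rho -0.532, permutation p 0.0125, adjusted 0.125 over 10 such relations, for rho 0.269), of -0.512 with Sox10 and of -0.238 with Mbp. Within slide 3, the dimmest, r was -0.788 with Prx, -0.633 with Sox10 and -0.191 with Mbp. The part of array brightness in the correlations was not tested.

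**Figure D3:**
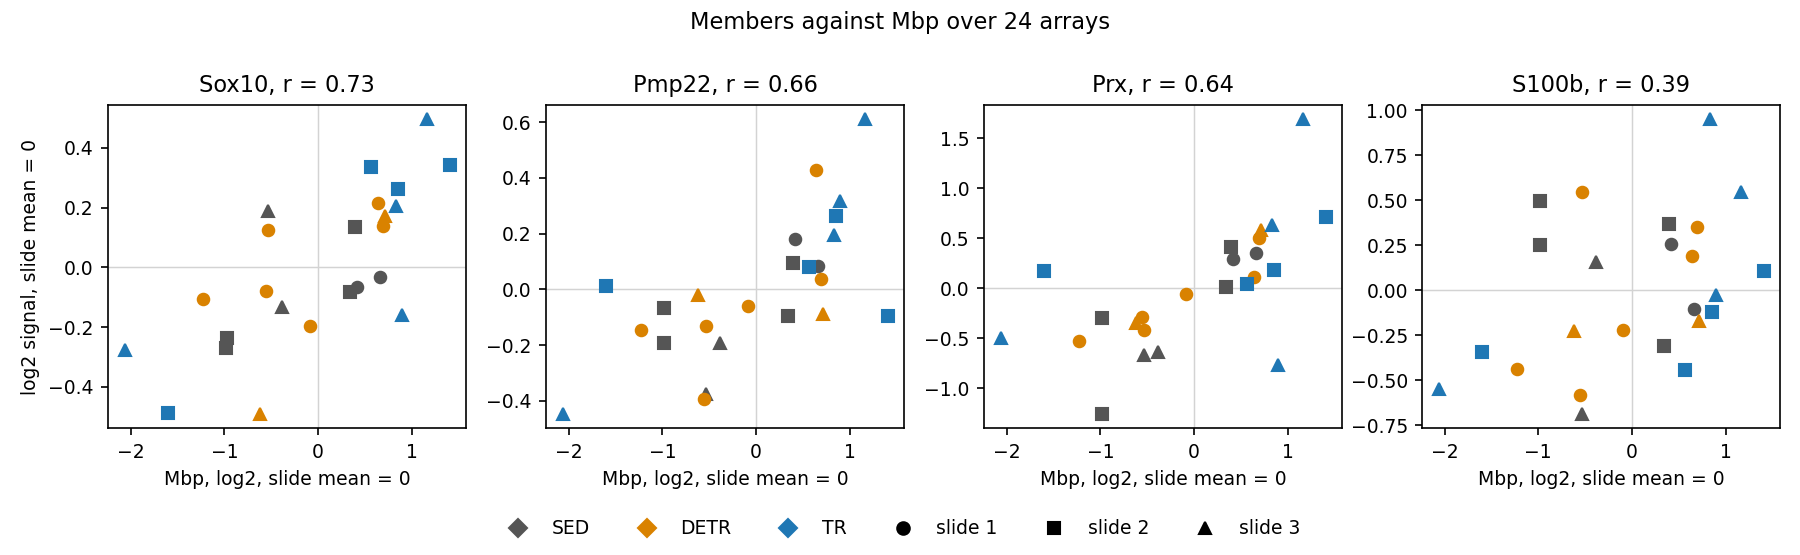
Each other member against Mbp over 24 arrays, both as log2 signal with the mean of each slide set to 0; colour gives the group and marker shape the slide. Sox10, Pmp22 and Prx rise with Mbp (r of 0.735, 0.665 and 0.639), and S100b less closely (r of 0.390), with rats of every group on both sides of the Mbp mean.

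Ranked by r with Mbp among 23424 other probes, Sox10 stood at place 28, Pmp22 at 69 and Prx at 99, and S100b at 2580. Ranks are a description, since probes share arrays. Prx ranked its partners less clearly, with Mbp at place 708 and Sox10 at 1210.

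Among the genes closest to Mbp, of 15887 compared, were Kcna1, a potassium channel of the axon beside the node, with r of 0.938 over 24 arrays and 0.951, 0.995 and 0.885 within the slides, and Plekhb1, a pleckstrin homology protein, with r of 0.926. Kcna1 ran from -4.89 to -3.19 in SED with a median of -3.58, from -4.72 to -2.76 in DETR with a median of -3.63, and from -5.50 to -2.49 in TR with a median of -3.21. It was well above background on 20 arrays, its lowest array was again in TR, and its groups overlapped. Its differences were -0.14 ± 0.50 in DETR minus SED and 0.38 ± 0.43 in TR minus SED, adjusted p 1.00 and 0.778 in limma.

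Among the genes nearest to the mean profile of the 5 members were Reln (0.857), Per1 (0.844), Atp13a2 (0.829), C3h11orf96 (0.817), Cmtm5 (0.814), Cldn1 (0.811), Kcna1 (0.807), Tspan2 (0.804) and Slc24a5 (0.795). Nearest to each single member were Map1b, Atp1b2 and Slc52a3 for Pmp22 (r of 0.819, 0.803 and 0.740), Dock6, Fkbp15 and Nab1 for Prx (0.821, 0.800 and 0.796), LOC100361213, Ttbk1 and LOC102555503 for Sox10 (0.882, 0.871 and 0.865) and Gp9, Zfp827 and Unc13d for S100b (0.779, 0.763 and 0.761).

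Mbp was then set against 143 genes of 19 cell type lists, an addition made after the values were seen, with Benjamini-Hochberg adjustment over the 143. Among nerve genes, Ncmap, a protein of myelin that is not compacted (r 0.881, rho 0.881), Lgi4, a secreted Schwann cell signal (0.688, rho 0.677), and Scn7a, a sodium channel of non-myelinating Schwann cells (0.626, rho 0.643), passed, with adjusted permutation p of 0.000357, 0.00409 and 0.00858, and for rho of 0.000715, 0.0155 and 0.0164. For Ncmap the unadjusted p, 1e-05, is the smallest the permutations can give. Within slide 3 Scn7a gave 0.175. Of 10 Schwann cell regulators Lgi4 alone passed, and that list had a median r of 0.22 and a lowest of -0.40. Of 9 genes of immature or non-myelinating Schwann cells Scn7a alone passed, with a list median of 0.29 and a lowest of -0.29. Outside nerve, Chrne, the adult subunit of the acetylcholine receptor at the neuromuscular junction, had r of 0.813 (rho 0.800, adjusted permutation p 0.000357, for rho 0.00143), with 0.882, 0.847 and 0.848 within the slides and 0.751 without TR 1 and TR 5, where it was lowest. The other 9 junction genes did not pass, and the list's median r was 0.15. Kit, listed for mast cells, passed at 0.640 (rho 0.604, adjusted permutation p 0.0129, for rho 0.0458), and gave 0.258 within slide 1. It alone passed of 6 mast cell genes, whose median r was 0.16 and lowest -0.07.

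All 13 myelin genes had a positive r with Mbp, with a median of 0.38 beside 0.06 over all probes, and most of them did not pass. A positive median was not particular to myelin: for 9 endothelial genes it was 0.43, with 0 past the threshold. Of the 9 genes in the axon and motor neuron list, which does not hold Kcna1, 0 passed, and their median r was -0.17. No fibre type gene passed, with medians of 0.05 for slow and 0.09 for fast fibres.

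Tendon genes ran opposite to Mbp, with 6 of 9 past the threshold and a list median of -0.68. Fmod, a collagen-binding proteoglycan, had r of -0.739 (rho -0.670), Thbs4 -0.702 (rho -0.738), Comp -0.700 (rho -0.671), Chad -0.694 (rho -0.621), Tnmd, a tendon membrane protein, -0.680 (rho -0.635) and Kera -0.654 (rho -0.543), with adjusted permutation p between 0.000357 and 0.0114. For rho it lay between 0.00179 and 0.0255, except for Kera at 0.0609. The collagens Col1a1 and Col1a2, of the fibroblast list, had r of -0.685 and -0.652 (adjusted permutation p 0.00286 and 0.0172, for rho 0.00286 and 0.0813). They were the 2 of its 9 genes that passed, and that list had a median r of -0.14 and a highest of 0.19. All 6 tendon genes were negative within every slide, from -0.843 to -0.490, and without TR 1 and TR 5, from -0.685 to -0.565. Scx, Mkx and Col2a1 did not pass, with r of 0.02, -0.19 and -0.23.

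Tnmd ran from -6.04 to -0.45 in SED, from -6.36 to -1.57 in DETR and from -6.43 to -1.19 in TR, and the groups overlapped. It was well above background on 17 of 24 arrays, and the lowest value of each group was not, so these low ends are bounded by background. The same tendon list had a median r of -0.46 with Sox10, -0.34 with Prx, -0.27 with Pmp22 and 0.10 with S100b, so S100b did not share the pattern. How much nerve and tendon each piece held was not measured apart from these transcripts, and its part in the correlations was not tested.

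**Figure D4:**
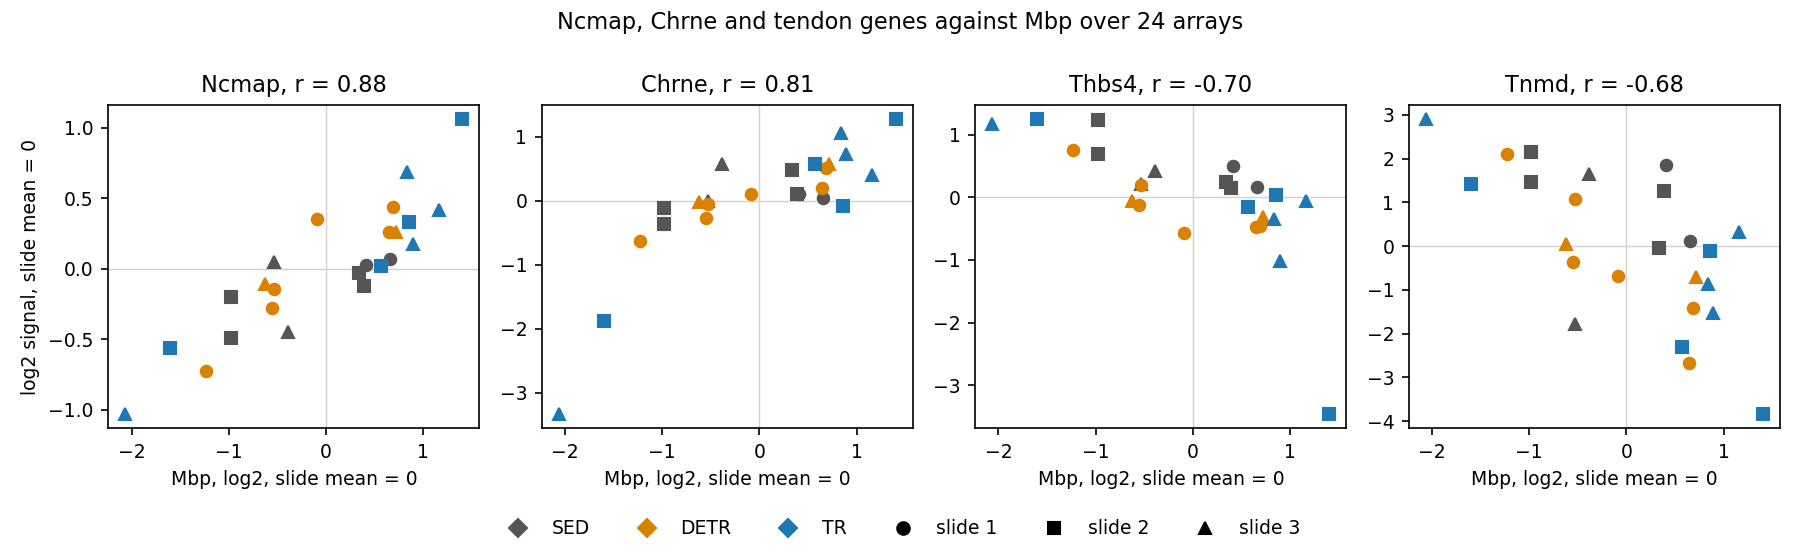
Ncmap, Chrne, Thbs4 and Tnmd against Mbp over 24 arrays, as log2 signal with the mean of each slide set to 0; colour gives the group and marker shape the slide. Ncmap (r of 0.881) and Chrne (0.813) rise with Mbp, and Thbs4 (-0.702) and Tnmd (-0.680) fall.

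**Figure D5:**
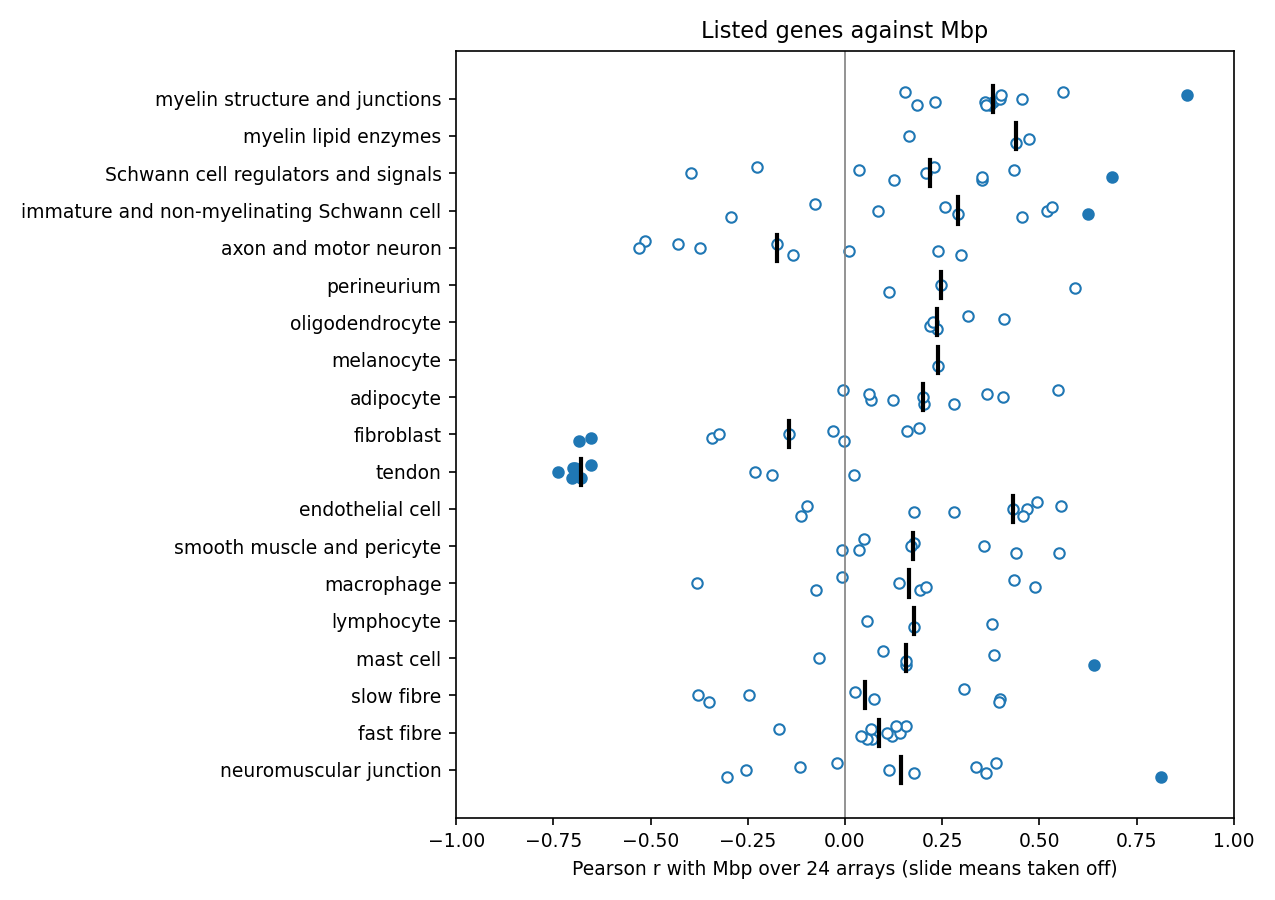
Pearson r with Mbp of the listed genes reported here, 1 point per gene, with the list median as a bar and filled points where the adjusted permutation p was under 0.05. The tendon list lies lowest, with a median of -0.68, and the highest points shown are Ncmap and Chrne.

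Vessel genes were set beside the members in the same way. With 9 endothelial genes the median r was 0.51 for Prx, 0.45 for S100b, 0.43 for Mbp, 0.38 for Pmp22 and 0.27 for Sox10, and positive for 8, 9, 7, 7 and 8 of them. With 8 smooth muscle and pericyte genes it was 0.42 for Sox10, 0.37 for Pmp22, 0.34 for Prx, 0.24 for S100b and 0.17 for Mbp, and positive for 6, 8, 8, 8 and 7. Over all probes the medians were 0.11 for Prx, 0.08 for S100b, 0.06 for Mbp, 0.00 for Pmp22 and 0.13 for Sox10. For the 13 myelin genes they were 0.47 for Prx, 0.31 for S100b, 0.38 for Mbp, 0.28 for Pmp22 and 0.51 for Sox10. The endothelial median was thus above the myelin median for every member but Sox10. These are counts and medians over genes that share arrays, with no test.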

How the data were processed

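RNA from 24 soleus samples was hybridised to one-colour Agilent arrays. The authors deposited the scanner files, whose intensity values are background-corrected signals from Feature Extraction (11.5.11.1 per the submitters' processing notes, 11.5.1.1 per the file headers), and a table of normalised log2 values whose tool the sources do not name. The 24 columns of that deposited log2 table share 1 distribution (median 6.26) and rank probes as the scanner values do (Spearman at least 0.997), so it was read as quantile-like and used as an alternative.

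Here, log2 of the processed signal minus each array's 75th percentile was used, without control or outlier spots, averaging a probe's spots. Probes detected above background on 8 or more of the 24 arrays (23425 of 30367) were tested with limma 3.58.1 (R 4.3.3) in 1 model of group plus slide over all arrays. Adjusted p-values use Benjamini-Hochberg within each comparison, threshold 0.05. Correlations used 100000 permutations within slides, over families of 10 member pairs, 143 listed genes with Mbp and 10 relations with array measures. Symbols came from RefSeq for 19147 probes by accession and from the deposited table for 5166, and 6054 had none. A gene stands for its brightest probe. The number of arrays limits the precision.

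Genes named are every member, the 10 nearest the members' mean profile, the 3 nearest each member, and list genes past the threshold or with the smallest p. In the lists set against Mbp, all genes past the threshold are named, which goes beyond that rule and was chosen after values were seen; 1 listed gene is not reported here. The members and lists were chosen with earlier results of these data known, so p-values are not independent support. The labels call the samples replicates of a group; p-values measure the spread between these rats. Scripts were tested on simulated data.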

Additional observations from a re-analysis of the deposited data

Results flagged for a closer look

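For each of the 7 member probes in each group of 8 arrays, the highest and lowest array were set against the nearest other by Dixon's criterion. Of 21 such sets 1 held an array that stood apart: the Mbp probe A_64_P017160 in SED, where SED 4 was at -7.28 and the nearest array at -6.58. Chance alone picks out about 1 in 20 such groups. The probe was not well above background on that array.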

How the results depend on the processing

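No member was called in any comparison in the main fit or any alternative run (589 fits in all, smallest adjusted p 0.182 in limma). The listed nerve genes gave 0 calls in every one of these settings too. Some directions did turn, and not only those close to 0. Among them were Mbp and Prx in TR minus DETR, at 0.64 and 0.51 in the main fit. In DETR minus SED, Prx was -0.076 with normexp, -0.44 within slide 1 and without slide 3, -0.021 with a replicate block and -0.049 with array weights; Sox10 was 0.15 with no slide term, 0.065 within slide 1 and without slide 3, and 0.085 with array weights; Mbp was 0.21 with no slide term and 0.51 within slide 3; Pmp22 was 0.23 and S100b 0.065 within slide 3. In TR minus SED, Pmp22 was -0.016 with no slide term, and S100b was 0.49 within slide 3 and 0.093 with a replicate block. In TR minus DETR with no slide term, Prx was -0.088, Mbp -0.16 and S100b -0.0057; S100b was -0.22 with array weights and -0.30 without slide 3. With single arrays left out, DETR minus SED ran from -0.24 to 0.21 for Prx, -0.10 to 0.0076 for Pmp22, -0.11 to 0.12 for Sox10 and -0.53 to 0.049 for Mbp; S100b ran from -0.17 to 0.066 in TR minus SED and -0.0074 to 0.29 in TR minus DETR. The causes were not tested.

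Over all probes, calls in DETR minus SED were 18 with array weights. In TR minus SED they were 4 with normexp, 103 with array weights, 6 with a replicate block, 0 within slide 2, within slide 3 or with 1 probe per gene, and 1 with slide as a random block, a trended prior, no slide term, no filter, detection asked on all 24 arrays, only the 2 groups, or without slide 3; they ran from 1 to 4 with single arrays left out. In TR minus DETR they were 34 with a replicate block, 1 with only the 2 groups, 2 with array weights, and 0 to 9 with single arrays left out. The labels give replicate numbers but name no pairing of rats. Of 24 same-numbered pairs, 1 had a correlation over 0.1 (range -0.37 to 0.27), and whether rats were paired cannot be told from these values.

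For Ncmap, Kcna1, Plekhb1, Chrne, Lgi4, Scn7a, Kit and the 9 tendon genes, r with Mbp kept its sign under quantile normalization, normexp, the deposited table, group means taken off and slide 3 left out, all chosen after seeing the data, except for Scx and Mkx without slide 3 (-0.05 and 0.03).

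Member pairs that passed, 5 of 10, were 8 with no centring on slide, 3 without the 2 farthest arrays, 1 within slide 1, 1 within slide 2, 0 within slide 3, 2 without slide 3 (added after seeing the data), and 3 to 7 with single arrays left out. These counts take either sign. With no centring, r with Sox10 was -0.256 for Mbp, -0.747 for Pmp22, -0.312 for Prx and -0.436 for S100b, so the 8 include pairs with r below 0. Within slide 2, r with S100b was -0.134 for Mbp, -0.364 for Pmp22, -0.232 for Prx and -0.123 for Sox10. Signal near background limits Prx, all of whose slide 3 values are below that line, and S100b.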
